A study of Mus musculus with 2 samples.

Results

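The variable genes of the T cell receptor were taken as every gene whose symbol starts with Trav, Trbv, Trgv or Trdv, 170 of the 32285 genes in the deposited tables. Genes with Tcrg-V symbols, further gamma variable genes, fell outside this rule. The 170 genes comprised 128 Trav (alpha chain), 35 Trbv (beta chain), 6 Trdv (delta chain) and 1 Trgv (gamma chain) gene, Trgv2. Their RNA was counted in T cells of 2 droplet libraries, read from the 5′ end of the transcript with version 2 chemistry, in which each captured molecule is counted once by its unique molecular identifier (UMI). Both libraries came from Nf1-OPG mice, which lose Nf1 in neuroglial progenitors through GFAP-Cre and carry a second Nf1 allele interrupted by a neomycin cassette (Nf1flox/neo; GFAP-Cre), a model of optic pathway glioma. The genotype was shared by the control, so neither library shows its effect. One library came from mice given vancomycin, an antibiotic, from 6 to 12 weeks of age and the other from mice given PBS and labelled Control. The protocol describes optic nerves and meningeal duras of 10 mice aged 12 weeks, pooled, and both tissue labels read optic nerve. The title of the control carries the further tags 3mth, FMC and ON, which the vancomycin title lacks.

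With 1 library of pooled mice per group, no test between conditions was possible, and all differences are between these 2 libraries. Intervals in brackets are exact 95% intervals and cover counting error only. A count of 0 allows up to 3 cells of the total. Cells with UMIs of the oligodendrocyte genes Mog and Mag (at least 2 in sum) made up 29.1% of 15726 kept cells with vancomycin and 0.755% of 4108 in the control, and cells with at least 2 UMIs of the microglial genes P2ry12 and Tmem119 10.1% and 25.6%. The libraries therefore held different mixtures of cells, and what this does to the T cell values was not tested. A T cell was a cell with at least 2 UMIs of Cd3d, Cd3e and Cd3g together. There were 4460 with vancomycin, with a median of 4550 UMIs a cell, and 1940 in the control, with a median of 5166. CD8 cells (Cd8a or Cd8b1, no Cd4) numbered 1729 and 942, CD4 cells (Cd4, no Cd8a, Cd8b1 or Foxp3) 1166 and 530, Foxp3 cells (Foxp3, no Cd8a or Cd8b1) 590 and 141, and cells with none of these RNAs, called double-negative below, 766 and 230. At least 2 UMIs of the regulatory genes Il2ra, Ikzf2 and Ctla4 were present in 99.0% and 97.2% of Foxp3 cells, against 72.1% and 56.6% of CD4 cells. UMIs of other lineages (at least 2 over 12 marker genes) were present in 18.8% of T cells with vancomycin and in 6.08% in the control, and the 2 libraries shared 100 cell barcodes.

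A developing T cell builds each receptor chain by joining 1 variable gene to a joining segment, with a diversity segment between them in beta and delta chains, and by splicing the product to a constant gene. Allelic exclusion leaves most T cells with 1 productive beta chain, while a second rearranged alpha chain is common. The variable gene with most UMIs in a cell was taken to name its receptor chain. This is an assumption, since a second Trbv gene in a cell and Trdv RNA in cells without Cd3 UMIs were also seen, as given below. Alpha and beta chains pair in conventional CD8, CD4 and Foxp3 regulatory T cells, gamma and delta chains in a separate lineage. Joining keeps the variable gene up to its conserved cysteine, where the loop that carries the joint begins. In the beta locus, joining to a gene deletes the genes between it and the joining segments and leaves those upstream of it in place.

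Trbv12-2 and Trbv13-2, the beta genes whose use differed most between the libraries, are shown first, followed by Trbv13-1, Trbv13-3 and Trbv2. Each is given by the last 90 bases of its GENCODE M21 transcript (GRCm38), with the codon of the conserved cysteine in capitals.
Trbv12-2: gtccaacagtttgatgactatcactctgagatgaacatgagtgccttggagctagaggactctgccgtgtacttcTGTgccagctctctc
Trbv13-2: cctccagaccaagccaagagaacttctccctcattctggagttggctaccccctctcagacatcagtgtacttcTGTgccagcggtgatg
Trbv13-1: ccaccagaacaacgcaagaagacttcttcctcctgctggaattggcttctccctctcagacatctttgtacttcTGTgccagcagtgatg
Trbv13-3: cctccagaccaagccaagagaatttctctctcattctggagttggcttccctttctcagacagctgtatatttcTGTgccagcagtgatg
Trbv2: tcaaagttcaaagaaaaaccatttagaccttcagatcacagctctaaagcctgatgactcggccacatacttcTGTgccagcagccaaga
Trbv12-2 (chr6:41118851-41119364, plus strand) lies directly before Trbv13-2 (chr6:41121396-41121832, plus strand), and Trbv13-1 (chr6:41116007-41116468) and Trbv13-3 (chr6:41130147-41130585) lie to either side. Trbv2 (chr6:41047340-41047995) lies nearer the start of the locus. Over their last 280 bases Trbv12-2 and Trbv13-2 had an edit distance of 128 and differed at 206 bases when compared position by position. Trbv13-2 was 91.4% identical to Trbv13-3, its closest relative, with 24 differences, and no Trbv gene was identical to another over this stretch. A 60-base window of both shows how the copies differ, with the differing bases in capitals.
Trbv13-2: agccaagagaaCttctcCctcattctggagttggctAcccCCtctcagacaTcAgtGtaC
Trbv13-3: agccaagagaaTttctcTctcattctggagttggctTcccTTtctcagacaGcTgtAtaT

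The alpha genes that led the most frequent receptor pairs, and the single Trgv gene, end as follows, marked in the same way.
Trav14d-3-dv8: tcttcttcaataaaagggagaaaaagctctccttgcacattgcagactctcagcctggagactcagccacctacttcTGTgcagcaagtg
Trav1: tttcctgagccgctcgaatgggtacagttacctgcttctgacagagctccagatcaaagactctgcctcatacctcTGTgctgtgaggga
Trav13d-1: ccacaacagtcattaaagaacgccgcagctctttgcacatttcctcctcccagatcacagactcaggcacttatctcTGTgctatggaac
Trav5-4: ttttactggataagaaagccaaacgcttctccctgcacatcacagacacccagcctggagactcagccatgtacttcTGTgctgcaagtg
Trgv2: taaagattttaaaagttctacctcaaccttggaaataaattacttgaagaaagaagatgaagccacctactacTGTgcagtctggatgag
These lie at chr14:53078452-53079045, chr14:52427928-52428876, chr14:52851290-52851866 and chr14:53704007-53704514, all on the plus strand, and at chr13:19336573-19337167 on the minus strand. The mouse alpha locus holds duplicated blocks whose genes carry a d or an n in their symbols, 39 and 34 of the 128 Trav genes, and these copies can be nearly alike. Trav14d-3-dv8 and Trav14n-3 differed at 9 of the last 280 bases, 4 of them in the following window.
Trav14d-3-dv8: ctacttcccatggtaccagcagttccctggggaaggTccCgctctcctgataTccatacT
Trav14n-3: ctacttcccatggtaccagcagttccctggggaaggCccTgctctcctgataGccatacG
Of 120 Trav genes with 280 bases or more, 36 were identical over that stretch to another Trav gene, and their median was 5 UMIs over both libraries. The 40 with 1 to 6 differences from their closest relative had a median of 239.5 UMIs and the 44 with more differences 195. Identical genes held 2.01% of Trav UMIs, so values of single d and n copies are uncertain where a read could have come from either.

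Of the 170 genes, 29 had no UMI in any T cell, 50 had 1 to 49 and 91 had at least 50. The annotation lists 34 of them as pseudogenes, and 24 of these had no UMI. The T cells held 98.5% of all variable gene UMIs of the kept cells with vancomycin (52055 UMIs) and 98.7% in the control (26141 UMIs). A Trbv UMI was present in 91.7% of T cells with vancomycin and in 93.2% in the control, and a Trav UMI in 81.5% and 81.9%. Microglia-marked cells with no Cd3 UMI, at median depths of 7531 and 6182 UMIs, had a Trbv UMI in 0.207% and 0.514% and a Trav UMI in 0.692% and 0.514%, which was taken as the background of free RNA. With each cell thinned to 1000 UMIs, which left out 32 and 71 T cells, a Trbv UMI remained in 60.6% and 68.7%. A leading Trbv gene (most UMIs, no tie) could be called in 3942 of the 4460 vancomycin T cells and 1759 of the 1940 control T cells, and a leading Trav gene in 3290 and 1459. Use of a gene is its share of these called cells.

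In counts per 1000000 UMIs (CPM), Trbv RNA stood at 964 CPM with vancomycin and 1328 CPM in the control, and Trav RNA at 584 and 765 CPM. The log2 ratio of vancomycin over control, taken after adding 10 CPM to both, had a median of -0.18 over the 91 genes with at least 50 UMIs and of 0.09 over all 13649 such genes. Of these 91, 2 were at least 2-fold higher with vancomycin, against 5.77% of all genes tested, and 3 at least 2-fold lower, against 1.52%. The higher genes were Trbv12-2 (104 against 34.9 CPM, log2 ratio 1.35) and Trav1 (44.5 against 15.8 CPM, 1.08). The lower genes were Trbv13-2 (20.5 against 205 CPM, -2.82), Trav5-4 (8.90 against 42.7 CPM, -1.48) and Trbv5 (28.6 against 69.9 CPM, -1.05). These fold changes are on the scale with 10 CPM added, which understates low genes. With 1 CPM added, 8 and 18 genes passed 2-fold, and under TMM scaling 1 and 6.

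Of 25 measured genes of the constant regions, the CD3 complex, the coreceptors and proximal signalling, none was 2-fold higher and 1 was 2-fold lower, Txk (29.8 against 73.7 CPM), which encodes a kinase downstream of the receptor. The median log2 ratio was -0.32 over 7 constant genes, -0.25 over the 4 CD3 genes, -0.66 over the 3 coreceptor genes and -0.55 over 11 signalling genes. The beta constant genes Trbc1 (44.2 against 90.5 CPM) and Trbc2 (212 against 396 CPM) had log2 ratios of -0.89 and -0.87, and the alpha constant gene Trac (145 against 189 CPM) -0.36. There were 3.76 Trbv UMIs for each Trbc UMI with vancomycin and 2.73 in the control, while Trav UMIs per Trac UMI were 4.03 and 4.05. The beta ratio was higher with vancomycin in each subset, from 3.61 to 4.45 against 2.43 to 3.02. The recombination genes Rag1, Rag2 and Dntt and the pre-T alpha gene Ptcra stayed under 50 UMIs over both libraries.

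The 10 most used beta genes were, in order of mean use, Trbv19, Trbv13-3, Trbv13-1, Trbv13-2, Trbv1, Trbv2, Trbv5, Trbv12-2, Trbv3 and Trbv31. Of 21 Trbv genes with at least 20 called cells, 15 were within 1.5-fold between libraries, 5 were used at least 1.5-fold more with vancomycin and 1 at least 1.5-fold less. On CPM with 10 CPM added, a measure unlike shares, 3 of 22 Trbv genes were 1.5-fold higher and 5 lower. Of all 91 variable genes tested on CPM, 5 were higher and 17 lower. On the same measure 12.9% of all genes were 1.5-fold higher and 7.01% 1.5-fold lower. Trbv1 led 7.15% of called cells (282) with vancomycin and 7.11% (125) in the control, Trbv3 5.86% and 5.46%, and Trbv31 5.45% and 5.69%. Trbv19 led 8.60% (339) and 10.9% (191), Trbv13-3 10.1% (399) and 8.30% (146), and Trbv13-1 7.64% (301) and 9.49% (167). Each of these 6 genes thus led between 5.45% and 10.9% of called cells in both pools.

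**Figure D1:**
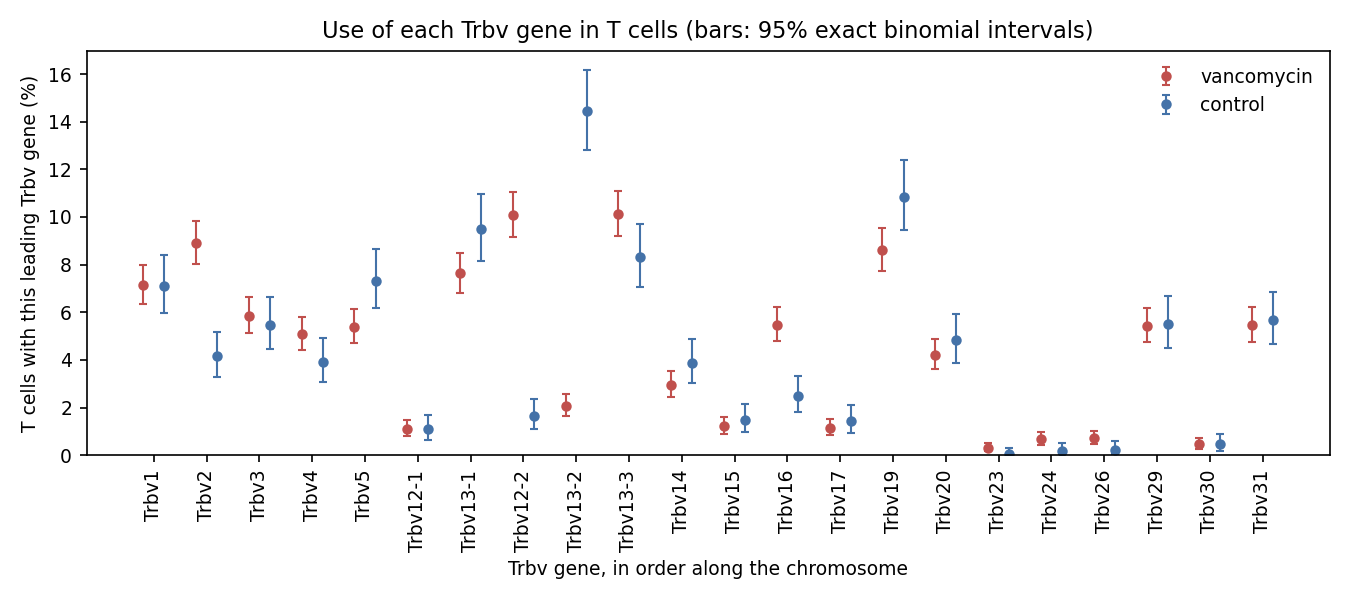
Use of each Trbv gene in T cells (percent of T cells with a called leading Trbv gene), vancomycin in red and control in blue, 1 library each; bars on the points are exact 95% binomial intervals. Trbv13-2 (2.08% against 14.4%) and Trbv12-2 (10.1% against 1.65%) stand furthest from equal use.

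Trbv13-2 led 2.08% of called T cells with vancomycin (82 cells) and 14.4% in the control (254 cells), a ratio of 0.144 [0.111 to 0.185]. Trbv12-2, its neighbour, led 10.1% (397 cells) and 1.65% (29 cells), a ratio of 6.11 [4.19 to 9.24]. Their summed use, a sum chosen after these values were seen, was 12.2% and 16.1% of called cells, a ratio of 0.755 [0.651 to 0.878]. The ratio of a sum always lies between the ratios of its parts, so how the 2 genes relate cannot be read from it. Trbv2 led 8.90% (351) and 4.15% (73), a ratio of 2.15 [1.66 to 2.80], and Trbv16 5.48% (216) and 2.50% (44), a ratio of 2.19 [1.58 to 3.10]. By ratio the rarely used Trbv24 (26 cells, 0.660%, against 3 cells, 0.171%) and Trbv26 (28 cells, 0.710%, against 4 cells, 0.227%) were also high. After Trbv13-2 the lowest ratios were those of Trbv5, at 5.38% and 7.33%, and Trbv14, at 2.94% and 3.87%. Trbv13-2 was thus the leading beta gene of the control and among the lesser ones with vancomycin.

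The opposite use of Trbv12-2 and Trbv13-2 was not limited to 1 subset. Among CD8 cells Trbv13-2 led 0.698% (11 cells) with vancomycin and 16.6% (147) in the control, among CD4 cells 3.01% (32) and 9.31% (47), among Foxp3 cells 2.77% (14) and 12.9% (16), and among double-negative cells 3.45% (21) and 20.1% (33). Trbv12-2 led 13.3% (210) and 2.60% (23) of CD8 cells, 7.80% (83) and 0.396% (2) of CD4 cells, 5.94% (30) and 0 of 124 Foxp3 cells, and 9.21% (56) and 1.22% (2) of double-negative cells. In all 4 subsets Trbv12-2 stood higher and Trbv13-2 lower with vancomycin. The sum of both genes was 14.0% and 19.3% of CD8 cells and 10.8% and 9.70% of CD4 cells. In Foxp3 cells it was 8.71% and 12.9%, and in double-negative cells 12.7% and 21.3%. For CD4 and Foxp3 cells the interval of the ratio of sums held 1 (0.791 to 1.59 and 0.374 to 1.28).

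The 2 genes were also detected together. Of the vancomycin cells led by Trbv13-2, 48 of 82 (58.5%) also had a Trbv12-2 UMI, and of those led by Trbv12-2, 106 of 397 (26.7%) also had a Trbv13-2 UMI. In the control these were 50 of 254 (19.7%) and 1 of 29 (3.45%). Cells led by any other Trbv gene had a Trbv12-2 UMI in 10.2% (354 of 3463) with vancomycin and 4.20% (62 of 1476) in the control, and a Trbv13-2 UMI in 2.69% (93) and 11.0% (163). A second Trbv gene of any name was seen in 30.5% and 29.6% of called cells. How often Trbv12-2 was the second gene differed with the position of the leading gene. With vancomycin, Trbv12-2 was seen in 19.7% of cells led by a gene downstream of it (336 of 1709) and in 3.15% of cells led by a gene upstream (51 of 1621), a ratio of 6.25 [4.64 to 8.56]. In the control the shares were 9.98% (95 of 952) and 1.33% (9 of 678), a ratio of 7.52 [3.8 to 16.9]. Control cells had Trbv13-2 in 18.9% (132 of 698) when led from downstream and in 3.96% (28 of 707) when led from upstream. With vancomycin the shares were 4.18% (68 of 1627) and 6.34% (128 of 2018), and 106 of these 128 cells were led by Trbv12-2. Without the cells led by Trbv12-2, a choice made after seeing the data, the shares of cells led from upstream were 1.36% (22 of 1621) with vancomycin and 3.98% (27 of 678) in the control. Trbv2 as a second gene was in 2.81% (87 of 3094) of cells led from downstream and 7.45% (21 of 282) of cells led from upstream with vancomycin, and in 2.87% (42 of 1461) and 0 of 125 in the control. Trbv31 is inverted and was left out of this count.

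**Figure D2:**
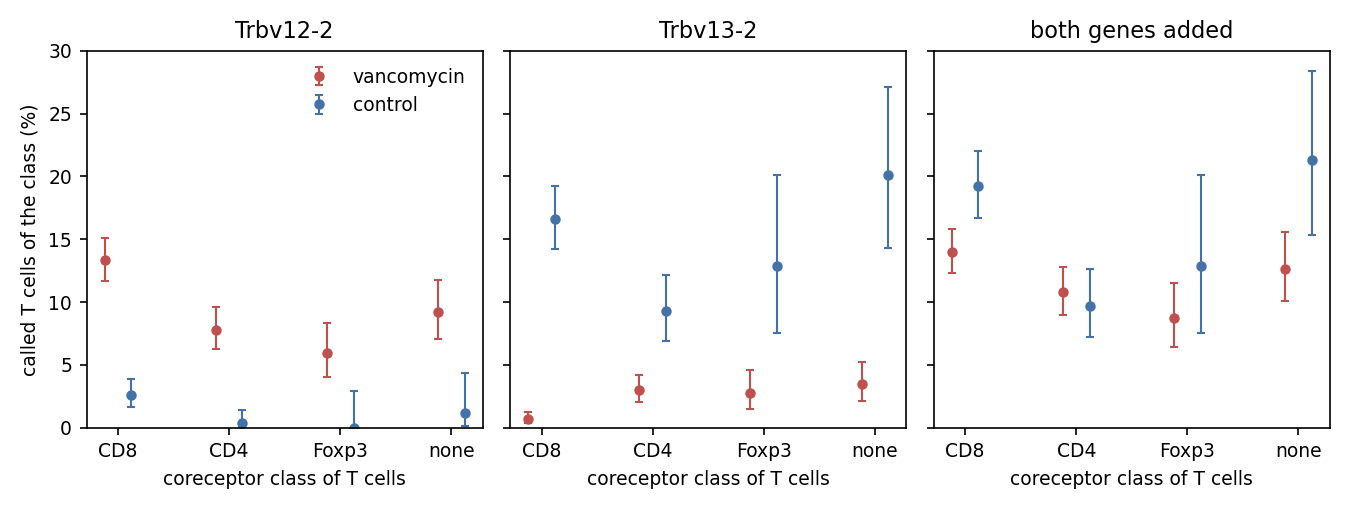
Use of Trbv12-2 (left), Trbv13-2 (middle) and both added (right), as percent of cells with a called leading Trbv gene in each T cell subset (none: double-negative), vancomycin in red and control in blue, with exact 95% binomial intervals. Trbv12-2 is higher and Trbv13-2 lower with vancomycin in CD8, CD4, Foxp3 and double-negative cells.

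The file headers name different Cell Ranger versions for the libraries, 7.2.0 for vancomycin and 6.0.1 for the control, and each library is another pool of 10 mice. Pool, treatment, tissue mixture and software version cannot be told apart here.

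Pearson's r of the shares in the 2 libraries was, in T cells, 0.779 over 101 Trav genes and 0.498 over 22 Trbv genes, across genes and as a description only, since genes are not independent replicates. For CD8 cells r was 0.421 and 0.236, and for CD4 cells 0.730 and 0.753. Of 57 Trav genes with at least 20 called T cells, 15 were used at least 1.5-fold more with vancomycin, 11 at least 1.5-fold less and 31 differed by less. On CPM with 10 CPM added, a measure unlike shares, 2 of 65 Trav genes were 1.5-fold higher and 10 lower. Of all genes, 12.9% and 7.01% passed this fold on CPM. Use was also counted with the genes of each subgroup added together, which joins all genes with the same first number. These are d and n copies but also distinct genes such as Trav7-3 and Trav7-4. So counted, 0 subgroups were used more and 3 less. The most used were Trav14d-3-dv8, Trav3-3, Trav16n, Trav5-4, Trav4-4-dv10, Trav7-3, Trav13-1, Trav19, Trav7-4 and Trav7-5. Trav14d-3-dv8, which can also serve in delta chains, led 7.96% (262 cells) with vancomycin and 4.11% (60) in the control, a ratio of 1.94 [1.46 to 2.61]. Trav5-4 led 2.34% (77) and 6.58% (96), a ratio of 0.356 [0.260 to 0.485], and Trav16n 2.92% (96) and 6.10% (89), a ratio of 0.478. Trav3-3 (5.44% and 5.14%), Trav4-4-dv10 (4.16% and 4.39%) and Trav13-1 (2.89% and 2.67%) were near equal. Trav7-3 stood at 3.77% and 4.59%, Trav7-4 at 3.01% and 2.47%, Trav19 at 2.19% and 3.36% and Trav7-5 at 1.95% and 3.43%.

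The highest ratios of alpha genes were those of d copies. Trav13d-1 led 99 cells (3.01%) with vancomycin and 8 (0.548%) in the control, a ratio of 5.49 [2.68 to 13.1]. Trav14d-1 led 21 and 1 cells, a ratio of 9.31 [1.5 to 385], and Trav6d-7 21 and 0 cells, at least 3.10-fold higher against a floor of 3 cells. The lowest ratio was that of Trav14-2, which led 16 cells (0.486%) and 23 cells (1.58%), 0.308 [0.152 to 0.610]. All d copies together led 28.2% of called T cells with vancomycin and 16.0% in the control. By subset, d copies led CD8 cells at 40.4% [37.7 to 43.1] and 13.5% [11.1 to 16.2], CD4 cells at 21.4% and 21.8% and Foxp3 cells at 11.8% and 11.4%. The n copies led 7.51% and 16.3% of CD8 cells. Since 36 Trav genes are identical over their last 280 bases to another, shares of single copies can depend on how reads were assigned, which was not tested. Identical genes held 2.01% of Trav UMIs. Of the 538 CD8 cells led by d copies with vancomycin, 123 had Trav14d-3-dv8 with Trbv2 and 80 Trav13d-1 with Trbv12-2. A further 50 had Trav6d-5 with Trbv16 and 38 Trav10d with Trbv29.

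Within CD8 cells, Trav14d-3-dv8 led 15.2% (203 of 1332 called cells) and 3.02% (22 of 728), Trav13d-1 6.38% (85) and 0.275% (2), and Trav6d-5 4.58% (61) and 0.137% (1). Trav5-4 led 1.05% (14) and 9.75% (71). Of 30 Trav genes with at least 20 called CD8 cells, 10 were used at least 1.5-fold more with vancomycin and 8 less. Of 19 Trbv genes, 4 were used more and 4 less. CPM in CD8 cells is a measure unlike shares. On it 4 of 46 Trav genes were 1.5-fold higher and 12 lower, and 4 of 19 Trbv genes higher and 9 lower. Of all genes, 15.2% and 8.17% passed this fold on CPM in CD8 cells. Trbv2 led 15.4% (242 of 1576) and 4.42% (39 of 883) of CD8 cells, against 5.73% and 4.55% of CD4 cells. Trbv16 led 9.33% (147) and 2.49% (22) of CD8 cells, against 2.07% and 2.77% of CD4 cells. On CPM in CD8 cells, 6 of 68 variable genes passed 2-fold upward with vancomycin, where 6.76% of all genes did, and 7 passed it downward, where 1.84% did. Among CD4 cells these were 1 and 9 of 64, where all genes gave 8.04% and 2.49%.

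Use differed between CD8 and CD4 cells of the same library, and for some genes alike in both. Of 19 Trbv genes, 5 were used at least 1.5-fold more by CD8 cells in both libraries and 4 at least 1.5-fold less. On CPM, a measure unlike shares, 1.29% and 1.58% of all genes passed this fold in both libraries. With CD8 and CD4 called from at least 2 UMIs, 2 Trbv genes were used less. Trbv14 led 5.52% of CD8 cells (87) and 0.752% of CD4 cells (8) with vancomycin, a ratio of 7.34 [3.57 to 17.5]. In the control it led 6.80% (60) and 0.396% (2), a ratio of 17.2 [4.55 to 145]. Trbv12-1 led 2.28% (36) and 0.282% (3) with vancomycin, a ratio of 8.10 [2.56 to 41.1], and 1.59% (14) and 0.594% (3) in the control, 2.67 [0.745 to 14.5]. The third was Trbv12-2, with ratios of 1.71 [1.32 to 2.23] and 6.58 [1.63 to 57.6]. Trbv29 was likewise used more by CD8 cells, 7.61% against 2.73% with vancomycin and 7.13% against 2.97% in the control. At the other end Trbv5 led 2.47% of CD8 and 9.59% of CD4 cells with vancomycin, a ratio of 0.258 [0.174 to 0.377], and 3.62% and 13.1% in the control, 0.277 [0.176 to 0.429]. Trbv20 led 1.71% and 5.55%, then 2.72% and 8.91%, ratios of 0.309 and 0.305. Trbv4 led 2.86% and 8.08% with vancomycin, a ratio of 0.353, and 2.72% and 4.55% in the control, 0.597 [0.323 to 1.11]. For Trbv5 and Trbv20 the 2 libraries gave nearly the same ratio.

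**Figure D3:**
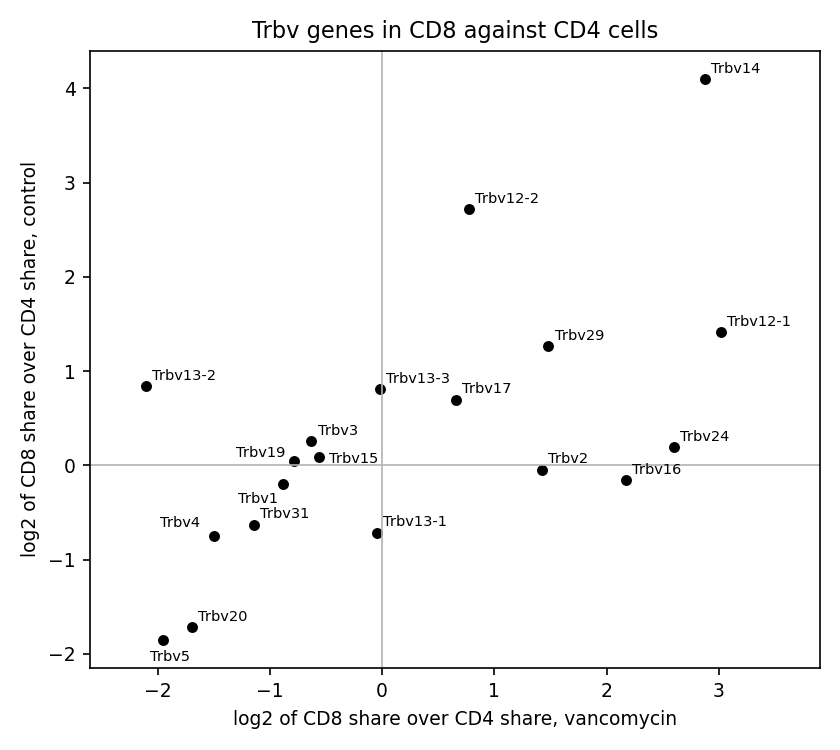
Log2 ratio of the share in CD8 cells over the share in CD4 cells for Trbv genes with at least 20 called cells in these subsets, vancomycin on the x axis and control on the y axis; genes with no called cell in a subset are not drawn. Trbv14 and Trbv12-1 lie to the upper right, Trbv5 and Trbv20 to the lower left, and Trbv13-2 lies on opposite sides.

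Of 49 Trav genes, 4 were used at least 1.5-fold more by CD8 than CD4 cells in both libraries and 11 less. With cells thinned to 1000 UMIs or subgroups added together, 3 were used less. Trav16 led 1.43% (19) of CD8 and 0.224% (2) of CD4 cells with vancomycin, and 1.51% (11) and 0 of 409 in the control. Trav19 led 3.45% (46) and 2.02% (18), then 6.18% (45) and 0.244% (1). Trav1 led 6.23% (83) and 0.336% (3) with vancomycin, a ratio of 18.5, but 1.51% (11) and 1.47% (6) in the control, 1.03. The genes leaning most to CD4 cells were Trav6-4 (0.300% against 3.47% with vancomycin, 0.275% against 1.22% in the control), Trav21-dv12 (0.526% against 3.02%, then 0.412% against 1.47%) and Trav14-1. The last of these led 0 of 728 CD8 cells and 2.20% (9) of CD4 cells in the control, but 0.826% (11) and 0.784% (7) with vancomycin.

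Foxp3 cells are mostly thymus-derived or induced regulatory T cells, and their use of variable genes was set against that of CD4 cells without Foxp3. Of 18 Trbv genes, 3 were used at least 1.5-fold more in Foxp3 cells of both libraries (Trbv13-3, Trbv14 and Trbv29) and 2 less (Trbv2 and Trbv31). On CPM, a measure unlike shares, 1.67% and 1.6% of all genes passed in both libraries. Trbv13-3 led 19.6% of Foxp3 cells (99) and 9.02% of CD4 cells (96) with vancomycin, a ratio of 2.17 [1.62 to 2.91]. In the control it led 12.9% (16) and 5.74% (29), a ratio of 2.25 [1.14 to 4.28]. Trbv14 had 6 against 8 and 5 against 2 cells, and counted in UMIs its log2 ratio with vancomycin turned to -0.19. Trbv29 had ratios of 1.53 and 1.63, and Trbv16, which did not pass in the control, 2.01 and 1.45. Trbv1 led 15.0% (76) of Foxp3 and 7.24% (77) of CD4 cells with vancomycin, and 9.68% (12) and 7.52% (38) in the control. Trbv2 stood lower in Foxp3 cells, with ratios of 0.345 (10 against 61 cells) and 0.531 (3 against 23 cells), and Trbv31 ratios of 0.570 and 0.536. Trbv5 had 0.434 and 0.679, which did not pass in the control. Trbv20 did not repeat, at ratios of 1 and 0.272.

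Of 36 Trav genes, 3 were used at least 1.5-fold more by Foxp3 than CD4 cells of both libraries and 7 less. Trav7-1 led 6.00% (25) of Foxp3 and 0.784% (7) of CD4 cells with vancomycin, a ratio of 7.65 [3.22 to 20.9], and 2.63% (3) and 0.733% (3) in the control. Trav12n-3 and Trav17 had ratios of 3.06 and 1.87 with vancomycin and both 3.59 in the control, from few cells. Trav4-3 (1.44% against 3.92% with vancomycin) and Trav6d-4 (0.480% against 2.35%) led no Foxp3 cell of 114 in the control. Trav14d-3-dv8 was also lower in Foxp3 cells, 0.719% against 3.14% and 2.63% against 6.85%, but with each cell thinned to 1000 UMIs its control log2 ratio turned to 0.30. Trav4-4-dv10 was the leading alpha gene of Foxp3 cells in both libraries, at 7.91% (33) and 14.9% (17).

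The effective number of genes is the exponential of Shannon entropy, the number of equally used genes that would give the same entropy. For Trbv in T cells it was 16.6 with vancomycin and 15.3 in the control. By subset it was 14.6 and 14.7 in CD8 cells, 15.4 and 14.2 in CD4 cells, 14.0 and 14.3 in Foxp3 cells and 16.1 and 12.7 in double-negative cells. For Trav it was 51.1 and 51.6 in T cells, 37.3 and 41.5 in CD8 cells, 46.1 and 48.6 in CD4 cells and 43.0 and 27.1 in Foxp3 cells. The last pair rests on 417 and 114 called cells. At 100 called cells each, Foxp3 cells were expected to show 41.9 and 35.4 Trav genes, CD8 cells 38.8 and 41.0 and CD4 cells 42.0 and 45.2. A random couple of CD8 cells had the same leading Trbv gene with a chance of 8.34% and 8.11%, although the leading gene was Trbv2 in one library and Trbv13-2 in the other. CD8 cells had fewer effective Trav genes than CD4 cells in both libraries, at ratios of 0.808 and 0.854. Counted by UMIs the vancomycin ratio was 0.584, and with each cell thinned to 1000 UMIs the control ratio was 1.04. With the genes of each subgroup added together the ratios were 0.968 and 1.08.

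A leading Trav and a leading Trbv gene were both called in 1218 CD8 cells with vancomycin and 687 in the control, and a few pairs recurred. Cells that share a pair need not descend from 1 cell, since the joints between the segments were not analysed here, and cells were not assigned to single mice of a pool. With vancomycin the most frequent pair was Trav14d-3-dv8 with Trbv2, in 123 cells (10.1% [8.46 to 11.9]). Trav13d-1 with Trbv12-2 followed with 80 cells (6.57%), Trav1 with Trbv2 with 57 (4.68%), Trav6d-5 with Trbv16 with 50 (4.11%) and Trav10d with Trbv29 with 38 (3.12%). None of these 5 pairs was seen in a control CD8 cell, which allows a share of up to 0.437%. In the control Trav5-4 with Trbv13-2 led with 65 cells (9.46%), and it was seen in no CD8 cell with vancomycin, which allows up to 0.246%. Trav19 with Trbv13-3 was frequent in both libraries, with 27 cells (2.22%) and 13 cells (1.89%), as was Trav7-3 with Trbv19, with 20 (1.64%) and 10 (1.46%).

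Pairs held by at least 10 cells took in 40.4% of CD8 cells with both chains called with vancomycin and 22.6% in the control. In CD4 cells they took in 12.0% and 0 of 392, and in Foxp3 cells 9.32% and 0 of 100. More cells make it easier for a pair to reach 10, so the chance that a random couple of cells shares its pair is also given: 2.19% and 1.37% in CD8 cells, and 0.392% and 0.338% in CD4 cells. Among 100 CD8 cells, 66.0 and 75.4 pairs were expected, and among 100 CD4 cells 84.8 and 86.4. With cells in which at least 2 Trbv genes had 2 UMIs each left out, the control share in pairs of at least 10 cells was 18.2%. With each cell thinned to 1000 UMIs, the shares were 26.1% and 8.54%.

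The pairs of a library can overlap in the same cells. Of 57 cells led by Trav1 with Trbv2, 54 also had a Trav14d-3-dv8 UMI, and of 123 led by Trav14d-3-dv8 with Trbv2, 69 had a Trav1 UMI. Over their last 280 bases these 2 genes had an edit distance of 128 and differed at 210 bases when compared position by position. In the same 123 cells 65 had a UMI of Trav14n-3, whose window is printed above beside that of Trav14d-3-dv8, and 37 one of Trbv24, an annotated pseudogene. Of the 65 control cells of Trav5-4 with Trbv13-2, 37 also had a Trav14d-3-dv8 UMI and 21 a Trbv2 UMI. Joining segments were seldom seen. Among cells with a Trbj UMI, Trbj2-1 was seen in 7 of 7 of the first Trbv2 pair, in 4 of 4 of the Trav1 with Trbv2 pair and in 6 of 6 of the control's leading pair.

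**Figure D4:**
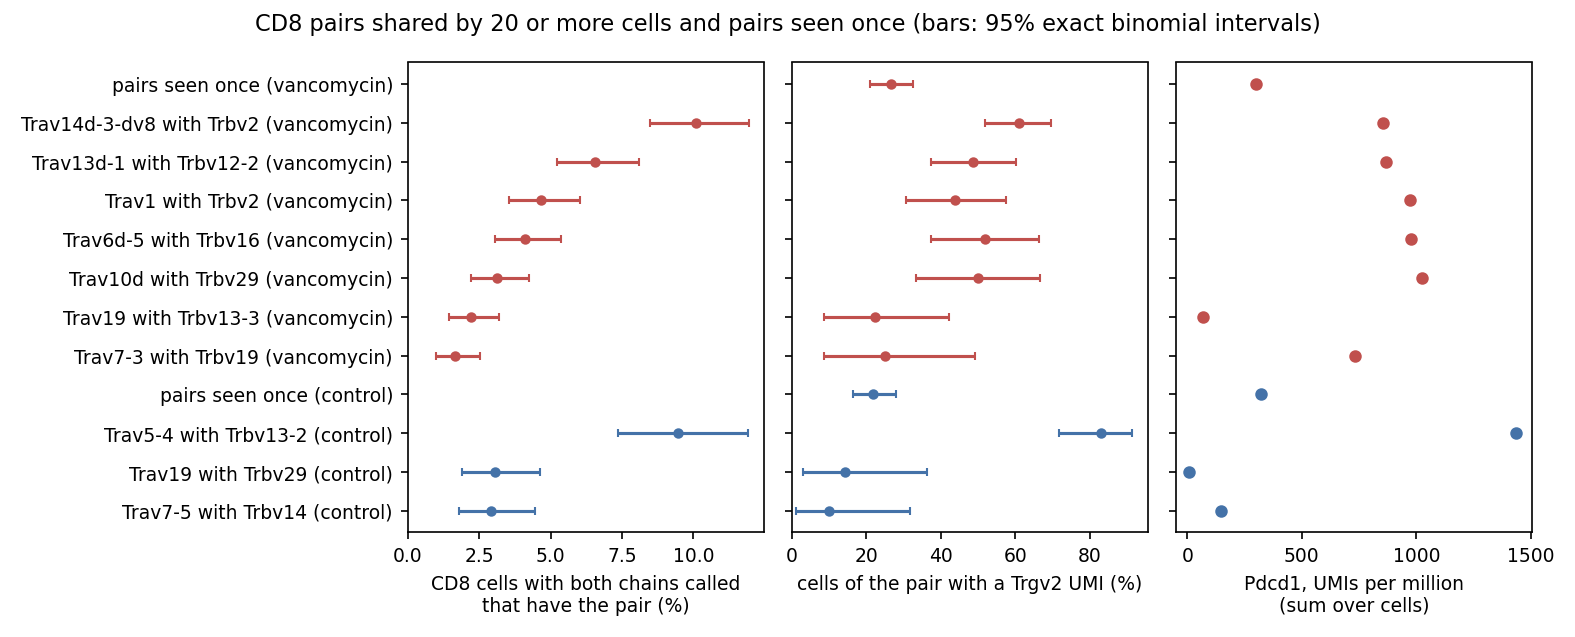
Trav with Trbv pairs held by at least 20 CD8 cells: percent of CD8 cells with both chains called (left), percent of the pair's cells with a Trgv2 UMI (middle) and Pdcd1 level in CPM (right), vancomycin in red and control in blue, with exact 95% binomial intervals on the percentages. In the vancomycin library 6 of 7 pairs held by at least 20 cells lie above the Pdcd1 level of cells whose pair was seen once, and in the control 1 of 3.

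CD8 cells of pairs held by at least 20 cells (395 with vancomycin, 106 in the control) were set against cells whose pair was seen once (241 and 206). Pdcd1, which encodes the receptor PD-1, was at 848 against 299 CPM with vancomycin and 934 against 321 CPM in the control. Lag3 was at 410 against 142 and 475 against 95.4 CPM, and Tox, a factor of exhausted T cells, at 622 against 258 and 413 against 103 CPM. Of 8 checkpoint genes, 3 were at least 2-fold higher with vancomycin (median log2 ratio 0.89), where 1.72% of all genes were. In the control 5 of 8 were (median 1.33), where 2.41% of all genes were. Ctla4 had log2 ratios of 0.07 and 0.16, Cd160 0.75 and 0.59 and Entpd1 0.30 and 0.77, and none of these 3 passed 2-fold. Of 6 measured naive and memory genes, 3 were at least 2-fold lower with vancomycin (median -0.97) and 2 in the control (median -0.92), where 0.718% and 1.2% of all genes were. Lef1, a factor of naive T cells, had log2 ratios of -1.75 and -1.15, and the egress receptor gene S1pr1 -1.04 and -1.33. With vancomycin S1pr1 rested on 15 and 36 UMIs. Ccr7, of the same list, went the other way, with a log2 ratio of 0.28 in both libraries. Among 9 measured effector genes 1 was higher and 1 lower with vancomycin, and 4 and 2 in the control. The granzyme gene Gzma was at 44.4 against 187 and 15.0 against 84.8 CPM, and the chemokine gene Ccl3 had log2 ratios of 1.24 and 1.97. Of 6 residency genes none was higher, 1 was lower with vancomycin and 2 in the control. Neither cycling gene, Mki67 or Top2a, passed 2-fold.

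The control values rest on 1 pair. Without Trav5-4 with Trbv13-2, 41 cells were left, and 0 of 7 measured checkpoint genes were higher and 2 lower, with a median of -0.72, and 0 of 6 naive genes were lower. With vancomycin, Trav14d-3-dv8 with Trbv2 was left out together with Trav1 with Trbv2, which left 215 cells, and 4 of 8 checkpoint genes were higher, with a median of 0.97, and 3 of 5 naive genes lower. Pdcd1 stood at 856, 867, 972, 977 and 1027 CPM in the 5 vancomycin pairs not seen in a control CD8 cell, from Trav14d-3-dv8 with Trbv2 to Trav10d with Trbv29. It stood at 1436 CPM in Trav5-4 with Trbv13-2. In Trav19 with Trbv13-3 and Trav7-3 with Trbv19, the pairs frequent in both libraries, it was at 67.0 and 734 CPM with vancomycin, and in the control's Trav19 with Trbv29 and Trav7-5 with Trbv14 at 6.10 and 146 CPM. The granzyme gene Gzmk had the other order, at 523 CPM in Trav19 with Trbv13-3 against 262 CPM in pairs seen once, and at 934 and 545 CPM in the 2 control pairs against 381. Pdcd1 thus ranged from 6.10 CPM (1 UMI in 21 cells) to 1436 CPM (729 UMIs in 65 cells) among the frequent pairs.

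The gamma gene Trgv2 was found mainly in CD8 cells. It had a UMI in 36.5% of CD8 cells with vancomycin (631 of 1729) and in 28.3% in the control (267 of 942). The shares were 2.14% (25) and 6.79% (36) in CD4 cells, 0.169% (1) and 2.13% (3) in Foxp3 cells and 9.01% (69) and 10.9% (25) in double-negative cells. Microglia-marked cells had it in 0 of 1446, which allows up to 0.207%, and in 0.103%. With cells thinned to 1000 UMIs and subsets called on the thinned UMIs, the CD8 shares were 14.6% and 14.8%, of 1431 and 792 cells. Before thinning the CD8 cells had median depths of 5556 and 5696 UMIs. Thinning changed both the depth and the cells called CD8, so the 2 cannot be told apart here. The level of Trgv2 over all T cells had the other order from the unthinned CD8 shares, 70.9 CPM with vancomycin and 124 CPM in the control. These were cells with beta chains: a leading Trbv gene was called in 92.4% and 95.1% of Trgv2-positive CD8 cells, and in 90.4% and 93.2% of CD8 cells without Trgv2. The delta constant gene Trdc was present in 1 of the 631 and 4 of the 267. The Tcrg-V genes, outside the rule, had a UMI in 12.1% of CD8 cells with vancomycin and 7.32% in the control. In CD4 cells the Tcrg-V shares were 1.37% and 4.15%, and in double-negative cells 6.40% and 12.6%.

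With vancomycin Trgv2 was detected in 49.4% of CD8 cells whose pair was held by at least 20 cells (195 of 395), 34.5% of those with pairs of 2 to 19 cells and 26.6% of those whose pair was seen once (64 of 241). In the control the shares were 55.7% (59 of 106), 25.6% and 21.8% (45 of 206). Median depths of these cells were 5783, 5733 and 5550 UMIs with vancomycin and 6044, 5784 and 5961 in the control. In the control 54 of the 59 positive cells of pairs held by at least 20 were of Trav5-4 with Trbv13-2, where the share was 83.1% (54 of 65). The other 2 such pairs had 14.3% (3 of 21, Trav19 with Trbv29) and 10.0% (2 of 20, Trav7-5 with Trbv14). Without the largest pair the control share was 12.2% [4.08 to 26.2] (5 of 41), below that of cells whose pair was seen once. In Trav14d-3-dv8 with Trbv2 it was 61.0% (75 of 123), and without this pair and Trav1 with Trbv2 the vancomycin share was 44.2% [37.4 to 51.1] (95 of 215). In Trav19 with Trbv13-3 it was 22.2% with vancomycin and 0 of 13 in the control.

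**Figure D5:**
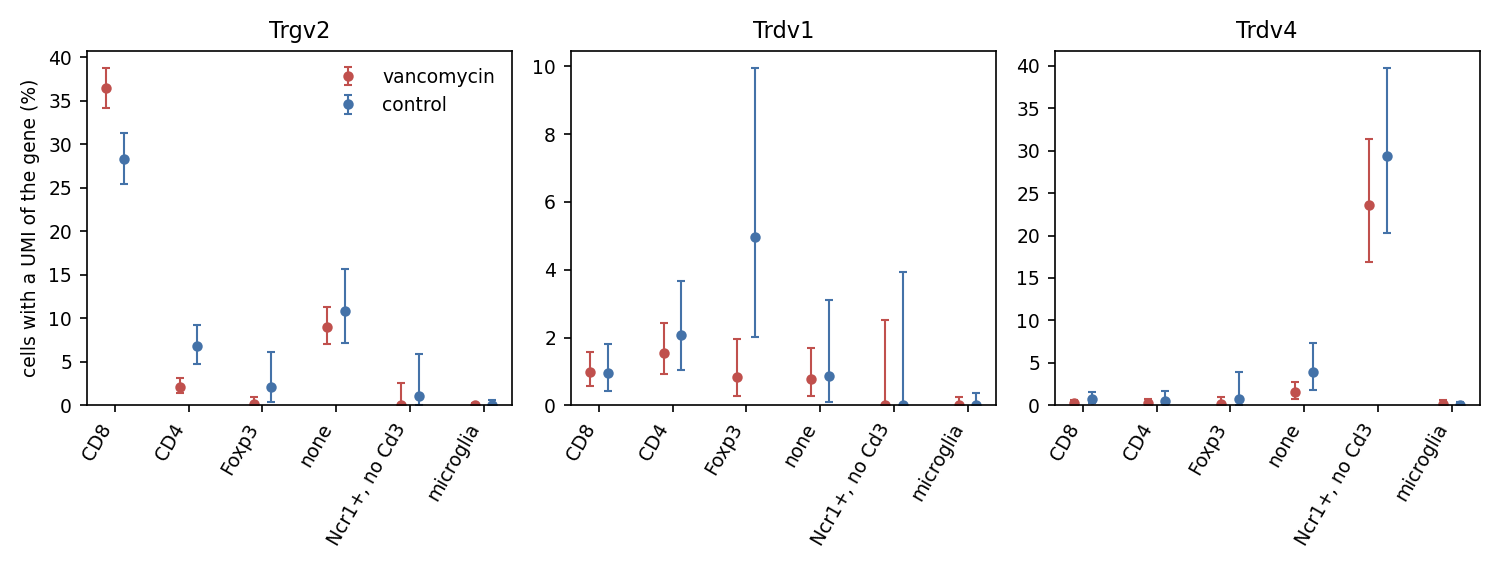
Percent of cells with a UMI of Trgv2, Trdv1 and Trdv4 in T cell subsets (none: double-negative), in cells with Ncr1 and no Cd3 UMI and in microglia-marked cells, vancomycin in red and control in blue, with exact 95% binomial intervals. Trgv2 is detected in 36.5% and 28.3% of CD8 cells, Trdv4 in 23.6% and 29.3% of the Ncr1 cells.

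Delta genes were rare. Any Trdv UMI was present in 2.40% of T cells with vancomycin (107) and in 3.71% in the control (72), and 82.2% and 81.9% of these cells also had a called Trbv gene. Trdv1 was seen in 49 and 30 T cells, among them 18 of 1166 and 11 of 530 CD4 cells, and in none of 11047 and 2064 cells without a Cd3 UMI. Trdv4 was seen in 21 and 20 T cells, of which the double-negative cells held 12 and 9, with 75 of its 96 and 104 of its 136 UMIs. Outside T cells, Trdv4 had a UMI in 34 of 144 (23.6%) and 27 of 92 (29.3%) cells with Ncr1, the gene of an NK cell receptor, and no Cd3 UMI. In cells with Gata3 and Il1rl1, genes known from type 2 innate lymphoid cells, and no Cd3 UMI, a set chosen after its values were seen, it was in 12 of 28 (42.9%) and 11 of 37 (29.7%). Trdv2-2 was seen in 35 and 23 T cells, and in 23 of 144 (16.0%) and 6 of 92 (6.52%) of the Ncr1 cells. Trdv2-1 was in 3 and 2 T cells and Trdv5 in 5 and 4, and Trdv3 had no UMI. So Trdv4 and Trdv2-2 RNA was present in cells without CD3 RNA, while Trdv1 RNA was not.

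Trav11 or Trav11d, which with Traj18 form the receptor of invariant NKT cells, led 0 of 3290 called T cells with vancomycin, which allows up to 0.0912%, and 5 of 1459 in the control. All 5 were double-negative and led by Trbv13-2, a usual partner of that receptor, 1 had a UMI of Zbtb16, the factor that directs this lineage, and none had a Traj18 UMI. Trav1, which with Traj33 forms the receptor of MAIT cells, led 96 (2.92%) and 26 (1.78%) cells, none with a Traj33 UMI. Joining segments were seldom seen, so these are not counts of MAIT cells. A Zbtb16 UMI was in 9 of the 96 and 1 of the 26, against 6.17% and 1.70% of all T cells. CD8 cells made up 83 of the 96. With vancomycin 59 of the 96 were led by Trbv2.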

How the data were processed

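Both libraries hold whole-number UMI counts per gene and cell barcode, as deposited by the authors in filtered matrices without further normalization. Per the file headers they were made with Cell Ranger 7.2.0 (vancomycin) and 6.0.1 (control), and mm10 and Partek are named per the submitters' processing notes. No source used here says whether introns were counted. The deposited totals were 144451114 UMIs in 16596 barcodes and 25609899 in 4272. Cells with at least 500 UMIs, 200 genes and at most 20% mitochondrial UMIs were kept. No doublet caller was run: 2 alternatives left out T cells with UMIs of other lineages or of 2 or more Trbv genes. A cell was assigned the gene with most UMIs in a family, and ties were left uncalled. CPM are UMIs summed over cells and scaled to 1000000, with 10 CPM added before log2 ratios. Genes under 50 UMIs over both libraries, or under 20 called cells for use, were not compared. The genes named are the 10 most used Trbv and Trav genes, the 3 highest and 3 lowest ratios of each comparison, all Trgv and Trdv genes, Trav11, Trav11d, Trav1 and the partner lists (a few listed genes are not reported here); genes of frequent pairs and of subset differences were named after their values were seen. Members, lists and rules, among them the checkpoint, effector, residency, naive and cycling lists, were chosen with earlier results of these data known. The Trbv calls and the intervals of use ratios were tested on simulated cells, part of which had an extra UMI of a random Trbv gene. Trav calls and pairs were not simulated. Tools were Python 3.11.15 with numpy 2.4.6, pandas 2.3.3, scipy 1.17.1, matplotlib 3.10.9 and edlib 1.3.9, and R 4.3.3 with edgeR 4.0.16 for the scaling alternatives.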

Additional observations from a re-analysis of the deposited data

Results flagged for a closer look

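Both alpha genes below differed between the libraries in opposite directions in CD8 and in CD4 cells, with intervals that did not hold 1 in either subset. The difference between CD8 and CD4 cells was not tested, since each group is 1 library. Trav14d-3-dv8 led 15.2% of CD8 cells with vancomycin (203) and 3.02% in the control (22), a ratio of 5.04 [3.24 to 8.23], and 3.14% (28) and 6.85% (28) of CD4 cells, a ratio of 0.458 [0.261 to 0.802]. Trav3-3 led 4.43% (59) and 7.14% (52) of CD8 cells, a ratio of 0.62 [0.42 to 0.918], and 6.49% (58) and 2.69% (11) of CD4 cells, a ratio of 2.41 [1.26 to 5.10].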

How the results depend on the processing

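No paired analysis was possible because each group is 1 library, and for the same reason no replicate could be left out. Of the summary values, 160 stayed within the stated range of their main value under the alternatives and 44 moved; of the single-gene values, 713 kept their side of the fold, 27 passed it, 23 no longer passed it and 2 turned. With each cell thinned to 1000 UMIs, T cells with a Trbv UMI came to 60.6% and 68.7% (vancomycin, then control), with a Trdv UMI to 1.24% and 2.03%, CD8 cells with Trgv2 to 14.6% and 14.8%, CD8 cells of Trav14d-3-dv8 with Trbv2 to 7.92% and those in pairs of at least 10 cells to 26.1% and 8.54%; 2 Trbv genes were used less with vancomycin, 3 Trav genes less in CD8 than CD4 cells of both libraries, 1 variable gene was 2-fold lower on CPM, the control ratio of effective Trav genes in CD8 over CD4 cells was 1.04, and the control log2 ratio of Trav14d-3-dv8 in Foxp3 over CD4 cells turned to 0.30. Requiring 4 Cd3 UMIs gave Trbv in 92.9% and 95.0% of T cells. Counting use in UMIs gave 2 Trbv genes used less with vancomycin, ratios of effective Trav genes of 0.672 (CD8 cells, vancomycin over control) and 0.584 (CD8 over CD4, vancomycin), and turned the vancomycin log2 ratio of Trbv14 in Foxp3 over CD4 cells to -0.19. Adding the genes of a subgroup together gave 0 Trav genes used more and 3 less with vancomycin, 3 less in CD8 than CD4 cells, an effective Trbv ratio in CD8 cells of 1.19, and CD8 over CD4 ratios of effective Trav genes of 0.968 and 1.08. Calling coreceptors from 2 UMIs left 2 Trbv genes used less and 2 Trav genes used more by CD8 cells. At least 50 called cells a gene left 3 Trbv genes used more with vancomycin; no minimum gave 30 Trav genes more and 34 less. Control CD8 cells in pairs of at least 10 cells came to 26.0% with at least 2 UMIs for the leading gene and 18.2% without cells of 2 or more Trbv genes. Variable genes 2-fold higher and lower on CPM numbered 8 and 18 with 1 CPM added, 0 and 1 with 50 CPM, and 1 and 6 under TMM or median-of-ratios scaling. Leaving out the largest pair of each library (with vancomycin together with Trav1 with Trbv2), an alternative chosen after seeing the data, left 0 control checkpoint genes higher and 0 naive genes lower in the shared pairs, and Trgv2 in 44.2% and 12.2% of their cells. Without cells led by Trbv12-2, also chosen after seeing the data, Trbv13-2 was in 1.36% of vancomycin cells led from upstream of it. Thinning also changed which cells were called CD8, CD4, Foxp3 or double-negative. The causes were not tested. Depth limits the shares of cells with a UMI, as the thinned values show.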
